A study of Mus musculus with 6 samples.

Results

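The genes described here are the cytokines and the cytokine receptor by which lymphoid tissue inducer cells and other group 3 innate lymphoid cells act: the lymphotoxin genes Lta and Ltb, the TNF-family ligand genes Tnf, Tnfsf4 (OX40 ligand) and Tnfsf11 (RANK ligand), the interleukin genes Il22, Il17a and Il17f, and the receptor gene Il23r. Members were all probe sets of the Affymetrix Mouse Genome 430 2.0 array that the platform annotation assigns to a single one of these 9 symbols. There were 7 such probe sets, for 6 genes, among 45037 tested probe sets of 18193 genes. Tnfsf11 had 2 of them and each other gene had 1. Il17f and Il23r had none in the annotation used here, the probe set of Il22 is shared with its near-identical copy Iltifb, and these 3 genes were not analysed here. The genes were chosen by their measured levels and their Tcf1-/- minus Tcf1-/+ differences on these same 6 arrays, so those values are given as a description, with no test.

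The cells were early thymic progenitors, the first thymic stage of T-cell development, sorted from C57Bl/6 mice 10 weeks old as lineage-negative, CD44-positive, CD25-negative, kit-positive cells. There were 3 arrays of mice that lack the transcription factor Tcf1 (Tcf1-/-) and 3 of Tcf1-/+ mice. The titles name the second group Tcf1-/+ while another label calls it wild type, and the name of the titles is used. The labels call the arrays biological replicates without saying how many animals gave the cells of each, so the spread between arrays may in part be technical. About 1000 sorted cells gave some 3 ng of RNA, which was amplified before hybridisation.

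Lymphoid tissue inducer cells are innate lymphocytes that start the formation of lymph nodes and gut lymphoid tissue. They carry the membrane heterotrimer of lymphotoxin alpha and beta, which binds the lymphotoxin beta receptor on stromal cells, and RANK ligand, which in the thymus acts on the RANK receptor of medullary epithelial precursors. Group 3 innate lymphoid cells also secrete the interleukins encoded by Il22, Il17a and Il17f when the receptor encoded by Il23r and Il12rb1 is engaged, and T cells that bear a gamma delta receptor can make the same cytokines.

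Ltb, Tnf and Lta lie side by side among the protein-coding genes of mouse chromosome 17, and Tnfsf11 lies on chromosome 14. The 250 bases before their RefSeq starts (build GRCm38.p6) are shown because these are the 4 members with a measurable level, and because the 3 neighbours differed in how they varied between arrays. Capitals mark matches, on either strand, to 4 motifs. The NF-kB type site was searched as GGG and CC with 5 bases of any kind between them. The TATA box was searched as TATAAA. The core bound by TCF/LEF factors was searched as CTTTG. The core bound by ROR factors was searched as AGGTCA.
Ltb, chr17:35194257-35194506, plus strand: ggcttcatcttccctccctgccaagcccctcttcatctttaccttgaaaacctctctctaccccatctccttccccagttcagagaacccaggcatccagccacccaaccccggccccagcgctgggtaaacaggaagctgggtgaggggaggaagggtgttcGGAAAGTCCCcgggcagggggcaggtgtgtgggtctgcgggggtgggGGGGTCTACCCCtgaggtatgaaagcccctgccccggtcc
Tnf, chr17:35202008-35202257, minus strand: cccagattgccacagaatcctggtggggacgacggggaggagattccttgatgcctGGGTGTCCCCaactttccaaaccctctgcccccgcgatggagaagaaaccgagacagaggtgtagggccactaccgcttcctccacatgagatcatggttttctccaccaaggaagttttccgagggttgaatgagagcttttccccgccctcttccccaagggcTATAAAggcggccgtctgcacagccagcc
Lta, chr17:35205352-35205601, minus strand: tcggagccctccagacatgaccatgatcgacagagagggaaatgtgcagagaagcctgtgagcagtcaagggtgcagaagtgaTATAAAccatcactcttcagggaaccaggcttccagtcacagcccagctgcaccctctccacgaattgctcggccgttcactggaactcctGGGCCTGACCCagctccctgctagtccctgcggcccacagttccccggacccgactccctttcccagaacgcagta
Tnfsf11, chr14:78308044-78308293, minus strand: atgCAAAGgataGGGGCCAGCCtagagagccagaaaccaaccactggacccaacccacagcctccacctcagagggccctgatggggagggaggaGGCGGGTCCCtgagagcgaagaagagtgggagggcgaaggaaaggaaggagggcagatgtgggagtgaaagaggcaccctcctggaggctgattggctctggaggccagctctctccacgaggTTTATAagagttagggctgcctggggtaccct

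The promoter of Ltb held NF-kB letters in stretches from -87 to -78 and from -40 to -29 before the start, that of Tnf from -194 to -185, that of Lta from -76 to -66, and that of Tnfsf11 from -238 to -229 and from -155 to -146. Matches on both strands that overlap were joined into a stretch. TATA letters stood at -29 to -24 in Tnf, at -32 to -27 in Tnfsf11 and at -167 to -162 in Lta. The TCF/LEF core occurred in the window of Tnfsf11, at -247 to -243, and in none of the other 3, and the ROR core in none of these 4. Of 32851 promoter windows of the same length, 45.8% held the NF-kB letters, 48.6% the TCF/LEF core, 14% the ROR core and 12.4% the TATA letters. The matches are letters in these windows and were not tested for binding.

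Values are log2 levels as deposited. The background level was set at 5.21, the 95th percentile of 27 control probe sets for bacterial transcripts. With that level, 4 of the 7 probe sets had a genotype mean above background: those of Lta, Ltb and Tnf and the brighter one of Tnfsf11. Over the whole array 65.6% of probe sets had one. By genes this is 4 of 6, beside 72.3% of all genes. The probe set of Il17a, an interleukin that recruits neutrophils, was under background on all 6 arrays, between 4.02 and 4.59. The probe set of Tnfsf4, whose product costimulates T cells through OX40, was above it on 1 array, Tcf1-/- replicate 2, at 5.22, and between 4.34 and 4.84 on the other 5. At these levels no difference between genotypes is read from them.

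**Figure D1:**
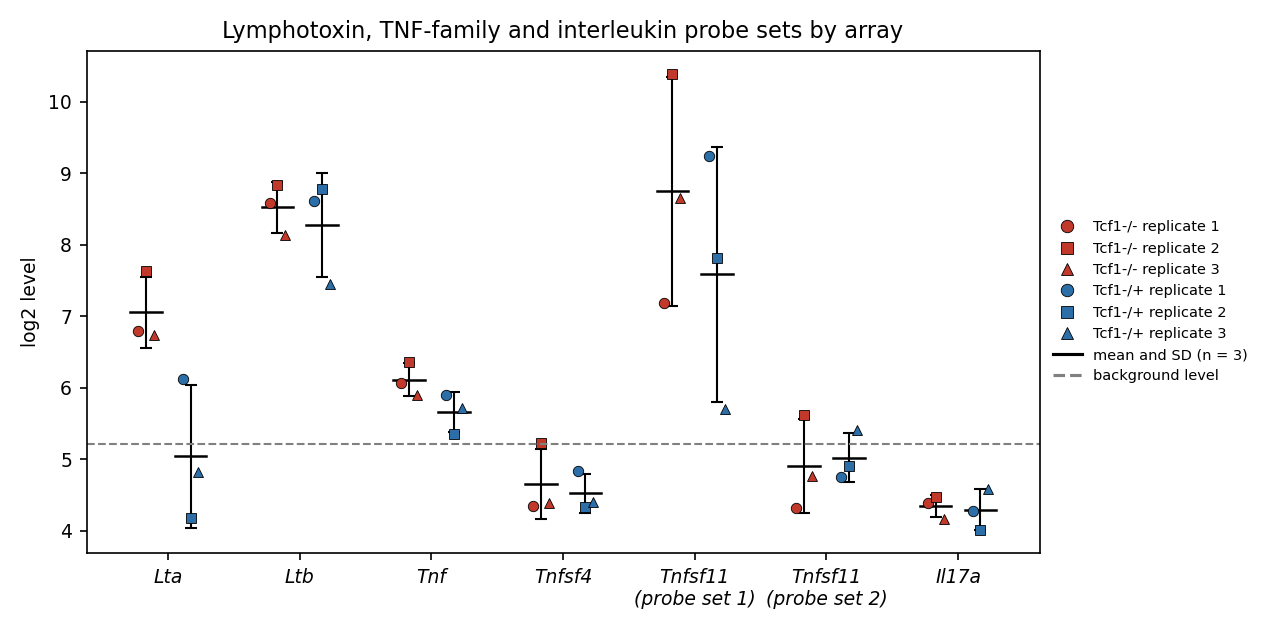
Log2 level (y axis) of the 7 probe sets on each array, with Tcf1-/- in red and Tcf1-/+ in blue, a symbol for each replicate number, the mean and SD of 3 arrays in black and the background level of 5.21 as a dashed line. Lta separates by genotype, Ltb lies high and level, Tnfsf11 spreads between 5.70 and 10.39 within and across genotypes, and Tnfsf4 and Il17a lie at background.

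Lta, which encodes the subunit shared by secreted lymphotoxin and the membrane heterotrimer, was the member with the largest difference. Its log2 levels were 6.79, 7.63 and 6.74 in Tcf1-/- and 6.12, 4.17 and 4.82 in Tcf1-/+. Every Tcf1-/- array lay above every Tcf1-/+ array, and the gap between the lowest of the first and the highest of the second was 0.62 log2 units. The means were 7.05 ± 0.50 (SD, n = 3) and 5.04 ± 0.99 (SD, n = 3), a difference of 2.01 (SE 0.55, from limma as for all differences), or 4.04-fold. Of the Tcf1-/+ arrays 1 was above background and 2 were not, so the size is not well measured. With values floored at background the difference was 1.54 (SE 0.40). Without Tcf1-/- replicate 2, the array least like the others, it was 1.73, and over the other single arrays left out it lay between 1.58 and 2.55.

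Lta was the 1 gene of 6 whose genotypes did not overlap. Over all genes 12.2% did not overlap in either direction and 7.22% did not overlap with Tcf1-/- higher. All 6 genes had a higher Tcf1-/- mean on their brightest probe set, as did 54.3% of all genes. Their median difference was 0.35, and 0.81 for the 4 above background, beside a median of 0.04 over all genes. The genes were chosen with this contrast in view, so nothing is read from these shares.

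Ltb, which encodes the subunit that anchors the heterotrimer in the membrane, was well above background on every array. It was at 8.58, 8.84 and 8.14 in Tcf1-/- and at 8.61, 8.78 and 7.45 in Tcf1-/+. The arrays of both genotypes lay in the same range, with Tcf1-/+ replicate 3 lowest. The difference was 0.24 (SE 0.42), smaller than the SD of 0.73 within Tcf1-/+, and it was -0.18 without that array.

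Tnf, which encodes the inflammatory cytokine tumour necrosis factor, was low on every array, at 6.07, 6.36 and 5.90 in Tcf1-/- and at 5.90, 5.36 and 5.72 in Tcf1-/+. The lowest Tcf1-/- array and the highest Tcf1-/+ array had the same deposited value, so the genotypes touched. The difference was 0.45 (SE 0.24), or 1.37-fold. With the background set at the highest bacterial control instead, 5.95, Tcf1-/- replicate 3 and all 3 Tcf1-/+ arrays were under it.

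The adjacent genes on the chromosome allow the cluster to be set in its surroundings. Lst1, the protein-coding gene next to Ltb, was at 8.80 ± 0.68 in Tcf1-/- and 8.77 ± 0.35 in Tcf1-/+ (SD, n = 3), a difference of 0.03 (SE 0.40). Nfkbil1, next to Lta on the other side, differed by 0.13 (SE 0.27). Of the 8 neighbours shown, H2-D1, a class I histocompatibility gene, was the one whose genotypes did not overlap, beside 12.2% of all genes. Its difference was 0.78 (SE 0.24). Atp6v1g2, which follows Nfkbil1, differed more, by 1.16 (SE 0.73), with overlap. The neighbours were chosen for their position, while H2-D1 and Atp6v1g2 are named here after their values were seen.

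**Figure D2:**
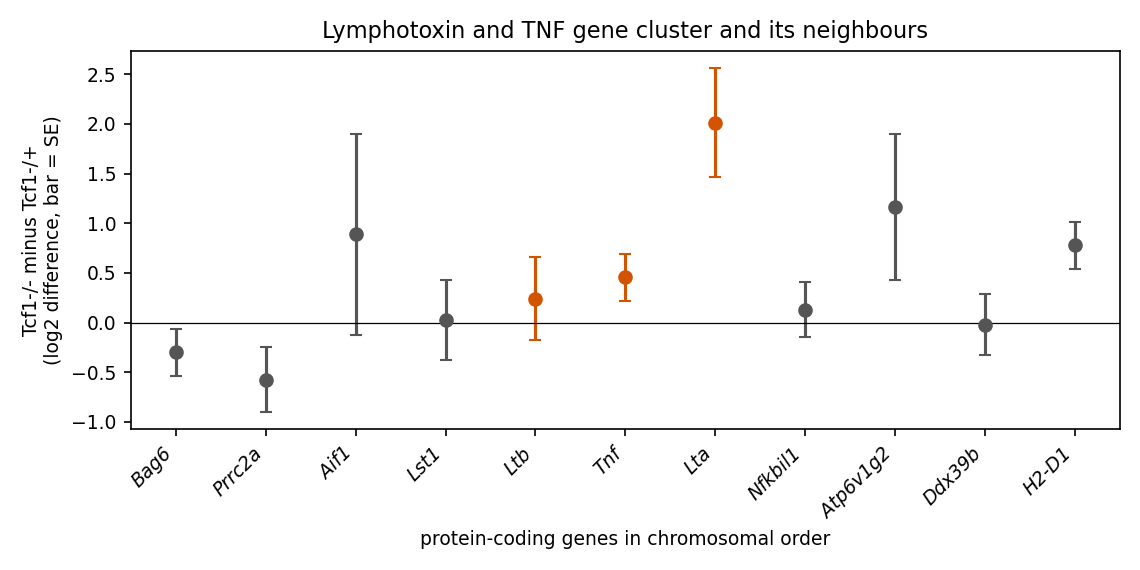
Difference between the Tcf1-/- and Tcf1-/+ means (y axis, log2; bars are SE from limma, 3 arrays each) for 11 protein-coding genes in their order along chromosome 17, with the lymphotoxin and TNF genes in orange. Lta stands at 2.01 between Tnf at 0.45 and Nfkbil1 at 0.13.

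Tnfsf11, which encodes RANK ligand, varied more within each genotype than any other member. Its brighter probe set was at 7.19, 10.39 and 8.65 in Tcf1-/- and at 9.23, 7.82 and 5.70 in Tcf1-/+. The highest array was Tcf1-/- replicate 2 and the second Tcf1-/+ replicate 1, and the genotypes overlapped widely. The range of 4.69 log2 units was reached or passed by 1.07% of all probe sets. Its SD was 1.60 within Tcf1-/- and 1.78 within Tcf1-/+, beside medians over all probe sets of 0.40 and 0.34.

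The genotype means of Tnfsf11 were 8.74 and 7.58, a difference of 1.16 (SE 1.14), close in size to its own standard error. It was 0.34 without Tcf1-/- replicate 2, 1.94 without Tcf1-/- replicate 1, 0.22 without Tcf1-/+ replicate 3 and 1.99 without Tcf1-/+ replicate 1. The other probe set of Tnfsf11 had both genotype means under background, at 4.90 and 5.02, with a difference of -0.12 (SE 0.39). It was highest on Tcf1-/- replicate 2, at 5.61, as the brighter one was, and next highest at 5.41 on Tcf1-/+ replicate 3, where the brighter one was lowest. The mean of both probe sets differed by 0.52 (SE 0.63).

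Among 13156 other genes with a genotype mean above background, the 3 whose pattern over the 6 arrays was most like that of Tnfsf11 were Tmem241 (Pearson r = 0.998), Pde1b (0.992), a calcium-dependent phosphodiesterase gene, and 1600014C23Rik (0.990). A correlation of at least 0.9 was found for 141 of these genes. All 3 put the 6 arrays in the same order as Tnfsf11, over smaller ranges. They were picked for their correlation, so the shared order is no separate result. Pde1b ran from 4.77 to 6.25, across the background level, and 1600014C23Rik from 5.97 to 6.47. All genes were read on the same 6 arrays, and the ranking over 6 points is given as a description.

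**Figure D3:**
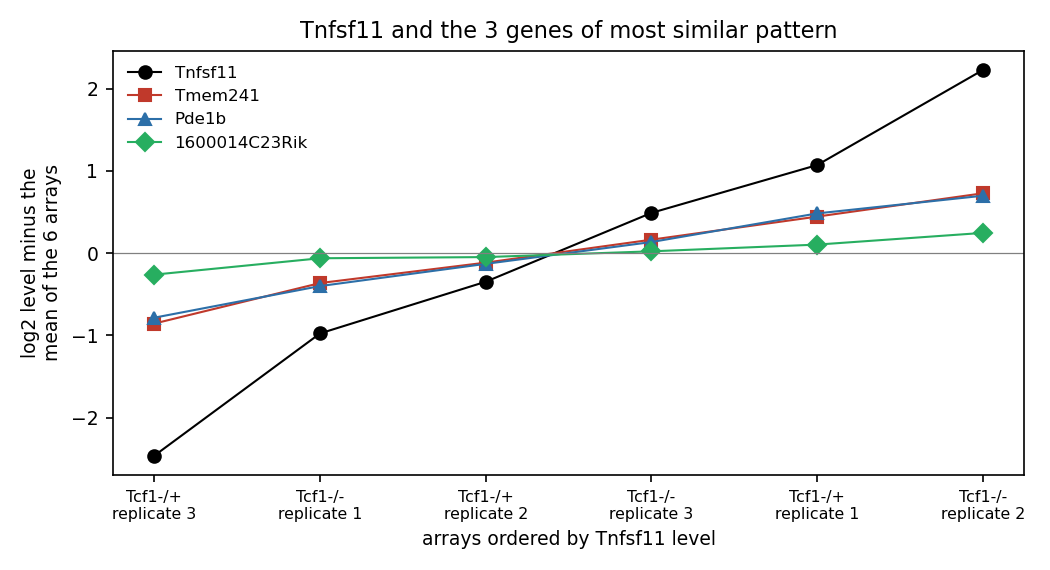
Log2 level minus the mean of the 6 arrays (y axis) for Tnfsf11 and the 3 genes of highest Pearson correlation with it, over the arrays ordered by Tnfsf11 level (x axis). Tnfsf11 spans 4.69 log2 units while the other 3 follow over smaller ranges.

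The genes around these cytokines were read from 6 lists written with earlier results of these data known, in all 98 genes with a probe set. Over all 45037 probe sets limma with Benjamini-Hochberg adjustment called 0% at an adjusted p of 0.05, and so none of the 98 passed. Without adjustment 2917 probe sets, or 6.48%, had a p under 0.05, 1337 of them (2.97%) higher and 1580 (3.51%) lower in Tcf1-/-. Among the 98 genes 14 did, 13 of them higher and 1 lower in Tcf1-/-, and over all genes the share was 6.78%, with 3.38% higher and 3.4% lower. Unmoderated tests also called 0, with 2565 probe sets at an unadjusted p under 0.05. The genes below are therefore given as values.

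**Figure D4:**
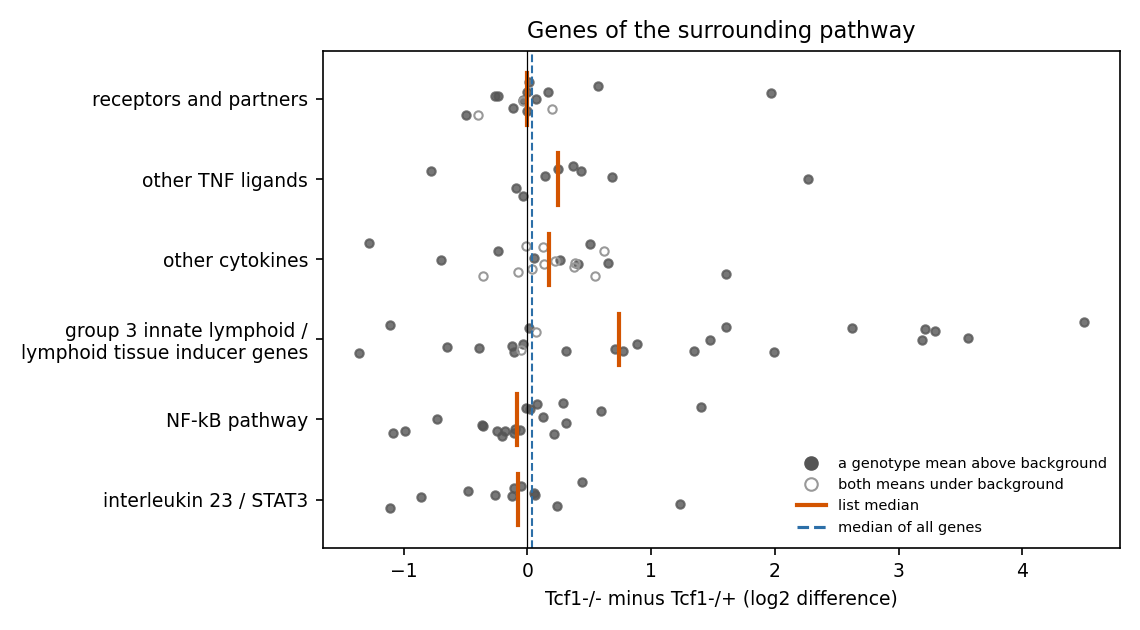
Difference between the genotype means (x axis, log2) for each gene of the 6 lists, filled where a genotype mean was above background and open where both were under it, with the list median in orange and the median of all genes, 0.04, dashed. The list of innate lymphoid and lymphoid tissue inducer genes has a median of 0.74, and the other 5 lists have medians between -0.08 and 0.24.

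Of the 15 receptors and partners of these cytokines, 6 had higher and 9 lower Tcf1-/- means, with a median difference of 0.00. Ltbr, the receptor of the lymphotoxin heterotrimer, was near level between genotypes at 6.62 and 6.56, a difference of 0.07 (SE 0.26). Tnfrsf11a, which encodes RANK, differed by 0.17 (SE 0.51), at 5.30 and 5.13, around background. Without Tcf1-/- replicate 3 the differences were -0.13 and -0.15, and without Tcf1-/+ replicate 2 they were -0.04 and -0.24. Tnfrsf4, the OX40 gene, was under background in both genotypes. The TNF receptor genes Tnfrsf1b and Tnfrsf1a differed by 0.57 (SE 0.36) and -0.50 (SE 0.38), and a second probe set of Tnfrsf1b by -0.33. Without Tcf1-/- replicate 2 these were 0.26 for Tnfrsf1b and -0.10 for Tnfrsf1a, without Tcf1-/+ replicate 2 Tnfrsf1b was 0.33, and without Tcf1-/- replicate 3 Tnfrsf1a was -0.75.

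Il12rb1, the chain that pairs with the Il23r product, was the 1 gene of these 15 without overlap. Over all genes 12.2% did not overlap in either direction and 7.22% with Tcf1-/- higher, so nothing is read from this count. It was at 6.89, 9.18 and 7.88 in Tcf1-/- and at 5.90, 5.43 and 6.72 in Tcf1-/+. The difference was 1.97 (SE 0.64), and limma gave an adjusted p of 0.693. The cytokine gene Il23a, at 3.74 and 3.55, was under background in both genotypes.

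Of 9 other ligands of the TNF superfamily with a probe set, 6 had higher and 3 lower Tcf1-/- means, and 3 did not overlap between genotypes, each with Tcf1-/- higher, beside 7.22% of all genes. Tnfsf14, also called LIGHT, is the other ligand of the lymphotoxin beta receptor. It was at 9.04, 10.64 and 9.11 in Tcf1-/- and at 7.31, 8.26 and 6.41 in Tcf1-/+. Its difference was 2.27 (SE 0.63), and limma gave an adjusted p of 0.607. A second probe set differed by 0.27 (SE 0.43), and the mean of both by 1.27. Fasl, the ligand of the death receptor Fas, differed by 0.68 (SE 0.27), with -0.54 on a second probe set, and Tnfsf9, a ligand that costimulates T cells, by -0.78 (SE 0.37), or -0.51 without Tcf1-/- replicate 2 and -0.30 with values floored at background.

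Of 20 other cytokine and chemokine genes of lymphocytes, 14 had higher and 6 lower Tcf1-/- means, and 11 had both means under background. Csf2, which encodes the growth factor GM-CSF, was at 6.06, 8.54 and 6.50 in Tcf1-/- and at 4.99, 4.96 and 6.34 in Tcf1-/+. The genotypes overlapped, 2 of the Tcf1-/+ arrays were under background, and the difference was 1.60 (SE 0.74), or 0.85 without Tcf1-/- replicate 2. Csf1, the macrophage growth factor gene, differed by 0.65 (SE 0.34) on the probe set of highest mean and by 2.30 (SE 0.50) over the mean of all 4, and Ccl3, a chemokine gene, by -0.70 (SE 0.40). The difference of Csf1 was 0.39 without Tcf1-/- replicate 2 and 0.42 without Tcf1-/+ replicate 2, and that of Ccl3 -0.39 without Tcf1-/+ replicate 1 and -1.06 without Tcf1-/+ replicate 3.

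The list of regulators and surface markers of group 3 innate lymphoid and lymphoid tissue inducer cells held 24 genes with a probe set, 16 with higher and 8 with lower Tcf1-/- means and a median of 0.74. In 9 of them all Tcf1-/- arrays lay above all Tcf1-/+ arrays, where this held for 7.22% of all genes, and in 1 they lay below, as for 4.94% of all genes. Id2, which antagonises E proteins and is required for innate lymphoid cells, had a difference of 3.19 (SE 0.49), and limma gave an adjusted p of 0.407. Il7r, the receptor gene for the survival cytokine interleukin 7, differed by 2.00 (SE 0.40) and Rora, a ROR-family factor gene, by 1.35 (SE 0.54). The 9 probe sets of Rora differed by between -0.03 and 3.04, and 8 of them were higher in Tcf1-/-. Those that differed by 1.53, 2.67 and 2.68 did not overlap, while the brightest did.

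Ccr6, a chemokine receptor of lymphoid tissue inducer cells, was at 9.98, 10.04 and 9.89 in Tcf1-/- and at 5.27, 7.65 and 6.29 in Tcf1-/+, a difference of 3.56 (SE 0.59). Cxcr5, the receptor that draws these cells to lymphoid anlagen and named here after its values were seen, was at 5.79, 7.39 and 8.40 in Tcf1-/- and under background on all 3 Tcf1-/+ arrays. Icos, a costimulatory receptor gene, differed by 3.22 (SE 0.56), and Il1r1, the interleukin 1 receptor gene, by 0.89 (SE 0.42), with overlap, and by 0.42 over the mean of its probe sets. Batf, a factor of interleukin 17 producing cells, differed by -1.11 (SE 0.55). It is 1 of the 8 genes of the list with lower Tcf1-/- means. Kit and Itga4, also among these 8, are named here after their values were seen. Kit, by which the cells were sorted, differed by -1.36 (SE 0.71), with overlap. Itga4 differed by -0.65 (SE 0.31) and was the 1 gene that lay below without overlap, with 3 of its 5 probe sets lower. Without Tcf1-/- replicate 2 the difference was 0.84 for Rora and -0.67 for Batf, and without Tcf1-/+ replicate 1 it was -0.72 for Batf.

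Among 20 genes of the NF-kB pathway that acts downstream of these receptors, 8 had higher and 12 lower Tcf1-/- means, with a median of -0.08. Without overlap 1 was higher, beside 7.22% of all genes, and 1 was lower, beside 4.94%, so nothing is read from these counts. Rel, an NF-kB subunit gene, was at 9.18, 9.47 and 9.52 in Tcf1-/- and at 7.91, 8.43 and 7.61 in Tcf1-/+. It did not overlap, and its difference was 1.40 (SE 0.27), and limma gave an adjusted p of 0.446. Birc2, an inhibitor of the alternative NF-kB pathway, differed by -1.09 (SE 0.37), also without overlap, and Nfkbia, an NF-kB feedback inhibitor, by 0.60 (SE 0.34), or 0.35 without Tcf1-/- replicate 2. Map3k14, the kinase of the alternative pathway, was level at 7.55 and 7.62.

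Of 12 genes of signalling through interleukin 23 and Stat3, 5 had higher and 7 lower Tcf1-/- means. On their brightest probe sets none was without overlap, beside 12.2% of all genes. Il6st, a shared cytokine receptor chain, differed by -0.86 (SE 0.42) and Nfkbiz, an atypical NF-kB inhibitor, by 1.23 (SE 0.69). A second probe set of Nfkbiz differed by -0.45 (SE 0.79) and the third by 1.57 (SE 0.79). Without Tcf1-/+ replicate 2 the Nfkbiz difference was 2.02, and without Tcf1-/+ replicate 3 it was 0.69. That of Il6st was -0.48 without Tcf1-/- replicate 2 and -1.45 over the mean of its probe sets. Its further probe sets differed by -2.06 (SE 0.53) and -2.05 (SE 0.70), both without overlap, and by -0.80 (SE 1.05), with overlap.

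Markers of the sorted cells and of cells that could accompany them were read from 8 lists. Of 12 markers of early thymic progenitors all had a genotype mean above background, and 11 had lower Tcf1-/- means. The list lay between 8.96 and 9.50 in Tcf1-/- and between 9.77 and 10.01 in Tcf1-/+. Another list was of T cells that make interleukin 17 and bear a gamma delta receptor. It lay between 9.02 and 9.65 in Tcf1-/- and between 7.96 and 8.01 in Tcf1-/+. Of its 9 measured genes 8 had higher Tcf1-/- means, beside 54.3% of all genes, and 5 did not overlap with Tcf1-/- higher, beside 7.22%. All 9 had a genotype mean above background. Its members Ccr6, Il1r1, Il7r, Maf and Zbtb16 are also in the innate lymphoid list, and Il17a itself was at background on all arrays. Blk, a kinase gene of these cells, differed by 2.44 (SE 0.63), and Sox13, one of their transcription factor genes, by -0.74 (SE 0.76). The CD3 genes among the T-cell markers below went the other way. Mean levels of Cd3e were 6.33 in Tcf1-/- and 7.99 in Tcf1-/+, and those of Cd3g 6.44 and 8.35, both with overlap. Cd3d was also lower in Tcf1-/-, without overlap.

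NK-cell markers lay between 6.98 and 7.54 in Tcf1-/- and between 6.11 and 6.80 in Tcf1-/+, with 6 of 9 higher and 3 under background in both genotypes, among them the defining receptor gene Ncr1. The list level was higher on every Tcf1-/- array, while the median difference of its genes was 0.08, and 1.27 for those above background. Of its 9 genes 3 did not overlap, beside 12.2% of all genes, and all 3 are named after their values were seen. The granzyme genes Gzmb and Gzma differed by 4.06 (SE 0.69) and 3.05 (SE 1.14), and the receptor gene Klrd1 by -1.49 (SE 0.60). Gzma on Tcf1-/- replicate 2, at 7.53, was just above its highest Tcf1-/+ array, at 7.48. The other Tcf1-/- arrays had Gzma at 11.16 or above, so its difference rests on those. B-cell markers, of cells that also make lymphotoxin, lay between 5.35 and 5.39 and between 5.25 and 5.38. The B-cell list and the other 4 lists overlapped between genotypes. Markers of committed and mature T cells lay between 6.66 and 6.91 in Tcf1-/- and between 6.83 and 7.32 in Tcf1-/+. Of these 12 genes 5 had higher and 7 lower Tcf1-/- means. Without overlap 1 was higher, beside 7.22% of all genes, and 2 were lower, beside 4.94%. These were Cd4, with a difference of 2.93 (SE 0.61), and Cd3d and Cd5, with -1.06 (SE 0.41) and -1.12 (SE 0.38). Myeloid markers lay between 7.08 and 8.18 and between 6.50 and 8.29, dendritic markers between 7.21 and 8.68 and between 7.50 and 9.14, and thymic stromal markers between 5.74 and 5.86 and between 5.29 and 5.75. The part of these cells in the values of Lta and the other members was not tested. In sorted bulk cells, more cells of a type and more RNA per cell cannot be told apart.

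**Figure D5:**
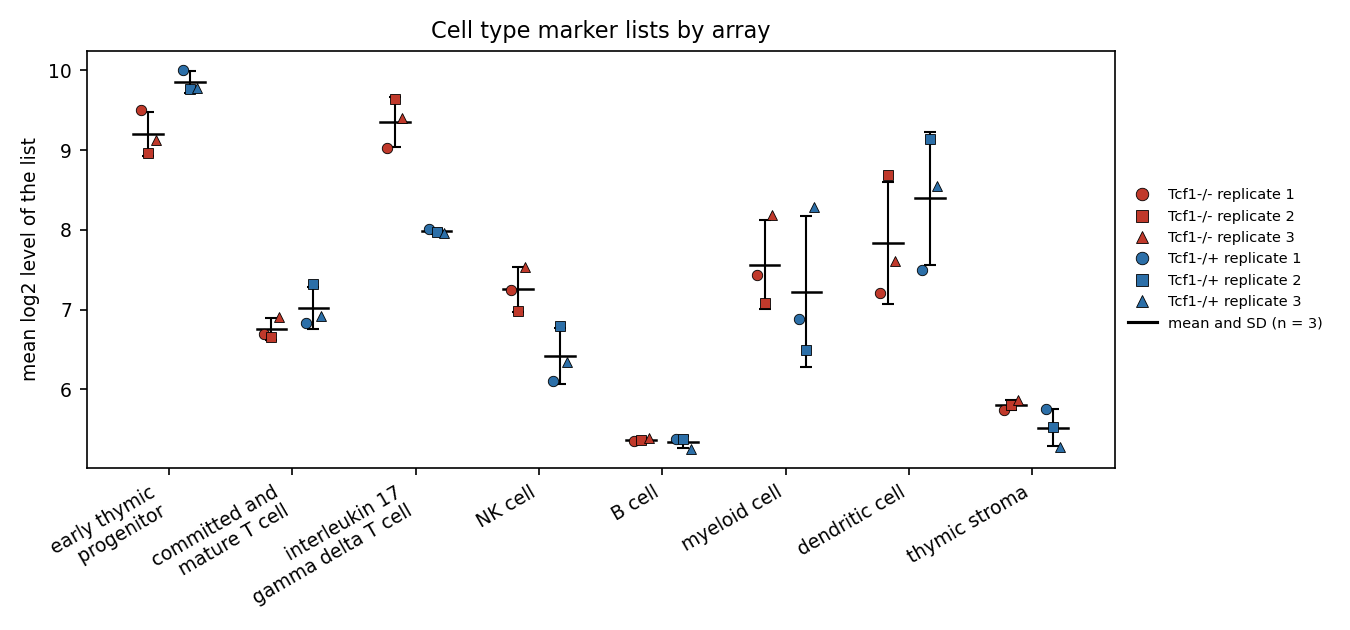
Mean log2 level of 8 lists of cell type markers (y axis) on each array, Tcf1-/- in red and Tcf1-/+ in blue, with the mean and SD of 3 arrays in black. The early thymic progenitor list lies lower on all Tcf1-/- arrays, at most 9.50 against at least 9.77, while the gamma delta list lies higher, at least 9.02 against at most 8.01, as does the NK-cell list, at least 6.98 against at most 6.80. The median difference over the genes of the NK-cell list is 0.08.

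Among the arrays, Tcf1-/- replicate 2 correlated with the other 5 between 0.871 and 0.894 over all probe sets, and the other pairs correlated between 0.913 and 0.934. The mean level of Y-linked genes differed within both genotypes, up to 6.73 in Tcf1-/- and 7.57 in Tcf1-/+. With that level as a covariate the difference of Lta was 2.15 (SE 0.53) and that of Tnfsf11 was 0.99 (SE 1.21).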

How the data were processed

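RNA of sorted early thymic progenitors was amplified and hybridised to Affymetrix Mouse Genome 430 2.0 arrays, per the labels' protocols, with 3 arrays for each genotype. The values used are log2 levels as deposited by the authors, with a normalisation not given in the sources used here. No further normalisation was applied outside the alternative fits, and precision is limited by having 3 arrays a genotype. The targeted gene was not analysed here.

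Of 45101 probe sets 64 controls were left out. Among the 45037 tested, 34945 had 1 gene symbol in the platform annotation, 932 had several and were not named, and 9160 had none. A gene was read from its probe set of highest mean. Background was the 95th percentile of 27 probe sets for Bacillus subtilis transcripts. All probe sets were fitted with limma 3.58.1 in R 4.3.3, with Benjamini-Hochberg adjustment and a threshold of 0.05. The procedure was tested on simulated data.

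The members and lists were chosen with earlier results of these data known. Named from each pathway list were the 3 genes above background with the lowest unadjusted p, and always Rora, Id2, Il7r, Ltbr, Tnfrsf11a, Tnfrsf4 and Il1r1. Another gene of that rule is not reported here. Promoters are from RefSeq (GRCm38.p6), which held 8 of the 9 members. Alternatives were other background levels and filters, a floor, each array left out, the mean over probe sets, covariates and a replicate block. Quantile normalisation, a shift of the arrays to a common median, array weights and unmoderated tests were further alternatives.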

Additional observations from a re-analysis of the deposited data

How the results depend on the processing

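No probe set and no gene of the 6 lists passed an adjusted p of 0.05 under any of the 14 alternative fits, and the count of probe sets at an unadjusted p under 0.05 lay between 1990 and 3487. Over the alternatives the difference of Lta lay between 1.54 and 2.55 and that of Tnf between 0.30 and 0.58. The sign of Ltb turned without Tcf1-/+ replicate 3 (-0.18), that of Tnfsf4 without Tcf1-/- replicate 2 (-0.16), and that of Il17a without Tcf1-/- replicate 2 (-0.01) and without Tcf1-/+ replicate 2 (-0.09). With single arrays left out, Ltbr differed by between -0.13 and 0.19 and Tnfrsf11a by between -0.24 and 0.59. The cause was not tested. The genotypes share replicate numbers. The deviations of same-numbered arrays correlated at 0.03, 0.04 and 0.01, and those of differently numbered arrays between -0.09 and 0.06. Correlations over all probe sets cannot decide whether the numbers pair the arrays for part of the genes. With the replicate block the difference was 2.01 (SE 0.60) for Lta and 1.16 (SE 1.14) for Tnfsf11, and 3074 probe sets had an unadjusted p under 0.05. The block moved the SE of Ltb from 0.42 to 0.26 and that of Lta from 0.55 to 0.60. Signal near background limits Tnfsf4, Il17a, the second Tnfsf11 probe set and the Tcf1-/+ level of Lta. With each array's own background level 5 members were above it.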

Other observations

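Of 45101 probe sets 284 held the same deposited value on at least 1 pair of arrays, and that of Tnf was among them.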
